A study of Mus musculus with 28 samples.

Results

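The Runx family of transcription factors was followed through the tibialis anterior (TA) muscle of 2 mouse models of centronuclear myopathy, with and without tamoxifen. Its 4 genes, Runx1, Runx2, Runx3 and Cbfb, were chosen by family name out of the 55416 gene identifiers counted in the Dnm2 cohort and the 55359 counted in the Bin1 cohort, and each of them was counted in both. The family was selected because its Runx1 response to tamoxifen differed by genotype, so all Runx1 values are given as a description, without a test. The comparisons of untreated disease with WT are included, since their disease mice also enter the tamoxifen comparisons. Runx proteins are transcription factors that bind DNA through a shared Runt domain, and they do so as a pair with CBFB, a partner that touches no DNA itself and stabilizes the Runx protein. Runx1 is required for the formation of blood stem cells and is switched on in muscle fibers that lose their nerve. Runx2 is the master regulator of osteoblasts, the bone-forming cells, and Runx3 acts in T and NK lymphocytes and in sensory neurons.

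RNA-seq counts were available for 28 mice in 7 groups of 4. The Dnm2 cohort held WT mice and mice heterozygous for the dynamin 2 mutation S619L (Dnm2 S619L/+), each on placebo or on tamoxifen, a modulator of the estrogen receptor, here mixed into the diet. The Bin1 cohort held WT mice on placebo and Bin1 mck-/- mice, with Bin1 deleted in muscle fibers, on placebo or on tamoxifen, and no WT mice on tamoxifen. TA muscles of C57BL/6N mice were taken at 8 weeks of age. The deletion is driven by the muscle creatine kinase promoter and therefore spares the other cells of the muscle, and the S619L substitution cannot be seen in counts per gene. Poly-A libraries used 300 ng of RNA fragmented for 2 min in the Dnm2 cohort, but 350 ng fragmented for 8 min in the Bin1 cohort, so model and protocol cannot be told apart and every comparison stays within a cohort.

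Depth ranged from 15586333 to 109710886 reads counted on genes per mouse in the Dnm2 cohort (median 28832003) and from 24671835 to 35136327 in the Bin1 cohort. Bin1 itself lay between 521 and 556 CPM in WT mice of the Bin1 cohort, 51.6 and 62.1 in Bin1 mck-/- mice on placebo, and 36.1 and 49.5 on tamoxifen. CPM are read counts scaled to a common library size after TMM correction. Muscle fiber genes were abundant in every group, with group means of 23218 to 41092 CPM for Acta1, which encodes the actin of skeletal muscle. Across the Dnm2 cohort, 15439 genes were tested, and 14841 across the Bin1 cohort. Dividing by library size alone, without TMM, moved the median log2 fold change of all genes by 0.26 for Dnm2 S619L/+ against WT, by 0.27 for tamoxifen in WT, by 0.34 for treated Dnm2 S619L/+ against WT, by 0.13 for Bin1 mck-/- against WT and by -0.16 for tamoxifen in Bin1 mck-/-. The share of calls that were higher moved with it, from 55.2% to 91.1% in the first of these, from 57.1% to 92.0% in the second, from 54.6% to 93.2% in the third and from 48.5% to 21.0% in the last. There were 3 mice that stood apart in markers of other cell types. Dnm2 S619L/+ replicate 4 on tamoxifen had a summed level of 8 osteoblast and osteocyte markers of 528 CPM against 2911 to 6729 in the other treated Dnm2 S619L/+ mice. Bin1 mck-/- replicate 2 on tamoxifen had 2721 CPM of the same markers against 91.6 to 494 in the rest of its group. Dnm2 S619L/+ replicate 4 on placebo had 38.3 CPM of 8 T and NK cell markers against 0.860 to 2.23 in the rest of its group.

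The genes lie on separate chromosomes. In build GRCm38, Runx1 (ENSMUSG00000022952) is at chr16:92601466-92826149 and Runx2 (ENSMUSG00000039153) at chr17:44495987-44814797, both on the minus strand. Runx3 (ENSMUSG00000070691) is at chr4:135120652-135177990 and Cbfb (ENSMUSG00000031885) at chr8:105170674-105217989, both on the plus strand. The 3 Runx genes share a short stretch of DNA at their first promoter, which is shown because it is itself made of sites that Runx proteins bind. In the RefSeq promoters of mouse build GRCm38.p6, the longest run of bases shared by promoters of Runx1, Runx2 and Runx3 was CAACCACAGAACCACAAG, which places 2 Runx core sites in tandem, and it was searched on both strands from 250 bases before to 50 bases after each start. It was found in 4 of 32851 promoters, or 0.0122%. These were the first promoters of Runx1, Runx2 and Runx3 and that of Gm16225, whose window overlaps the Runx3 window on the opposite strand. The run was picked from the promoters of these genes, so their own matches are no finding, and a match is a description of letters, not a site at which binding was measured. The windows of 30 bases below are printed 5′ to 3′ on the strand of the gene, with the shared run in capitals, at chr16:92826025-92826054 on the minus strand for Runx1, chr17:44814583-44814612 on the minus strand for Runx2 and chr4:135120503-135120532 on the plus strand for Runx3.
Runx1: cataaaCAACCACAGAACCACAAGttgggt
Runx2: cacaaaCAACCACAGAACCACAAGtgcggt
Runx3: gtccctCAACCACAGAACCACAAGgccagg
Counted from the start of transcription, the run begins at base 27 in Runx1, at base 22 in Runx2 and at base -136 in Runx3. No promoter of Cbfb held it. The single core site TGTGGT, whose reverse complement ACCACA lies inside the run, was present on either strand in 16.8% of all RefSeq promoters.

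Some genes known as targets of Runx2 in bone also carried the core site, and 3 of them are shown because they are among the genes that rose beside Runx2 in mice on tamoxifen. Of 15 RefSeq promoters of the list of Runx2 targets in bone, 4 held TGTGGT, that is Bglap, Spp1, Mmp13 and Dmp1. The 250 bases before the start are given on the strand of the gene with the core site in capitals, at chr3:88384467-88384716 on the minus strand for Bglap (osteocalcin, a protein of bone matrix), chr5:104434861-104435110 on the plus strand for Spp1 (osteopontin) and chr9:7272264-7272513 on the plus strand for Mmp13 (a collagenase). In each of them the capitals spell the reverse complement, ACCACA.
Bglap: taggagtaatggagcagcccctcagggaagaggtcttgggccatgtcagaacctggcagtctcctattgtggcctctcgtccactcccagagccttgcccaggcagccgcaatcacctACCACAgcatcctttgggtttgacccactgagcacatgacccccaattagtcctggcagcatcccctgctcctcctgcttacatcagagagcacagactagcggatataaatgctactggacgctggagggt
Spp1: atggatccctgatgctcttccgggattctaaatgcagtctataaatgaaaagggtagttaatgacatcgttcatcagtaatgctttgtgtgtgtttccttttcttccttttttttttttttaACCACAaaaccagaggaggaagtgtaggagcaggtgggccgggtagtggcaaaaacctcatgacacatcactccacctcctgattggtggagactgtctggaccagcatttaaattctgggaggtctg
Mmp13: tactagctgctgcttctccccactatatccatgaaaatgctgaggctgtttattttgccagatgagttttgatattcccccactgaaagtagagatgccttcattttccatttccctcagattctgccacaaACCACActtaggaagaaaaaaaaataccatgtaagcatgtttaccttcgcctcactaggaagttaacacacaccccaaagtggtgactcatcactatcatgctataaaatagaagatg

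Per length of exon, the family was low in WT muscle and its make-up differed between groups. The summed level of Runx1, Runx2 and Runx3 was 0.316 ± 0.118 CPM per kb (SD, n = 4) in WT mice of the Dnm2 cohort and 0.245 ± 0.0407 in WT mice of the Bin1 cohort. It was 2.34 ± 0.640 in Dnm2 S619L/+ on placebo, 6.23 ± 1.69 in WT on tamoxifen and 5.73 ± 2.90 in Dnm2 S619L/+ on tamoxifen. In the Bin1 cohort it was 0.907 ± 0.450 in Bin1 mck-/- on placebo and 1.17 ± 1.42 on tamoxifen. All 4 mice of each other group of the Dnm2 cohort lay above the highest WT mouse on placebo, at 0.473 CPM per kb. In treated Bin1 mck-/-, replicate 2 reached 3.30 CPM per kb, and the lowest mouse had 0.365. Runx1 made up on average 51.5% of this sum in WT and 82.4% in Dnm2 S619L/+ on placebo, while in WT on tamoxifen it made up 28.9%, with 52.9% from Runx2 and 18.2% from Runx3. In treated Dnm2 S619L/+, the shares were 56.8% for Runx1, 33.0% for Runx2 and 10.2% for Runx3. In the Bin1 cohort, Runx1 held 56.1% in WT, 79.3% in Bin1 mck-/- on placebo and 62.4% on tamoxifen. Cbfb, the common partner, exceeded the summed Runx level in every group, on average 87.7 times in WT and 4.25 times in treated Dnm2 S619L/+, on the same scale per length.

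**Figure D1:**
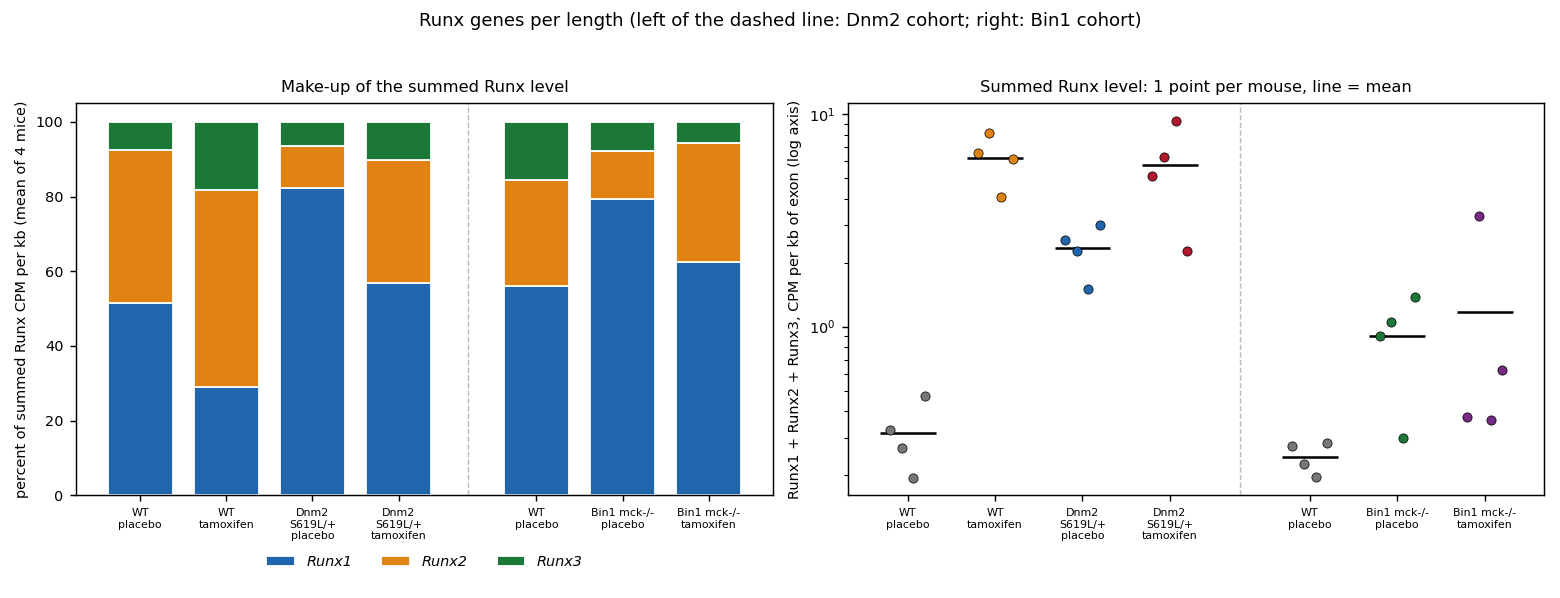
Make-up and size of the summed Runx level in 7 groups of 4 mice, in CPM per kb of exon. Left, mean percent of the sum held by each gene, with Runx1 at 82.4% in Dnm2 S619L/+ on placebo and at 28.9% in WT on tamoxifen. Right, the sum in each mouse on a log axis with the group mean as a line, at 0.316 in WT and 6.23 in WT on tamoxifen.

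Runx1 was higher in untreated disease than in WT muscle in both models. In the Dnm2 cohort, WT mice had 2.02, 1.61, 0.949 and 3.66 CPM of Runx1 and Dnm2 S619L/+ mice had 26.5, 22.8, 16.02 and 25.8 CPM. All 4 disease mice lay above all WT mice. The log2 fold change was 3.36 ± 0.32 (SE), or 10.3-fold, and it stayed between 3.22 and 3.75 when any mouse of the cohort was left out. No p is given, since the same placebo mice enter the difference by which the family was chosen. In this comparison 21.9% of all genes tested were called by edgeR, 12.1% higher and 9.81% lower. In bulk tissue, fewer cells of a type and less RNA per cell cannot be told apart, here and for every gene below.

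Runx1 was also higher in disease in the Bin1 cohort, with more spread. WT mice had 1.87, 1.496, 1.38 and 1.84 CPM and Bin1 mck-/- mice had 7.40, 11.04, 2.79 and 13.9 CPM. The groups did not overlap, although replicate 3 of the disease group lay close to WT. The log2 fold change was 2.37 ± 0.54, or 5.17-fold, with values of 2.05 to 2.66 when any mouse of the cohort was left out. No p is given, since the untreated Bin1 mck-/- mice also enter the tamoxifen comparison of that model, whose values chose the family. For the same reason no call of Runx1 is read here from any fit. In this comparison 2.61% of all genes were called and 1.99% called higher. Whether the change in Runx1 differed between the models was not tested, since protocol and model change together.

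Macrophage markers moved with Runx1, a gene that myeloid cells also express. Their summed level over 8 markers was 64.5 to 110 CPM in WT and 97.7 to 359 in Dnm2 S619L/+ on placebo, and 51.3 to 78.0 in WT and 152 to 293 in Bin1 mck-/- on placebo. Of the 8 markers, 4 rose in each of these comparisons by the edgeR test and none fell. Of all genes, 12.1% were called higher in the Dnm2 cohort and 1.99% in the Bin1 cohort. Without Dnm2 S619L/+ replicate 4 on placebo, 1 rose in the Dnm2 cohort, and without treated replicate 2, 7 rose in the Bin1 cohort. The number of all genes called also changes when a mouse is left out, as given under processing below. Under tamoxifen, 7 rose in WT, beside 15.8% of all genes, with sums of 178 to 345 CPM, and in Dnm2 S619L/+ the sums were 116 to 261. Dnm2 S619L/+ replicate 3, with the lowest macrophage sum of its group (97.7 CPM), had 16.02 CPM of Runx1. The part of these cells in the Runx1 level was not tested.

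Some of the genes that muscle fibers switch on after loss of the nerve were called higher in the same comparisons. The list held 15 genes that respond to loss of the nerve, not all of them by a rise. Of these, 6 rose in Dnm2 S619L/+ on placebo, 9 were not called and none fell, beside 12.1% of all genes called higher. The median log2 fold change was 1.14 against 0.02 for all genes. Gadd45a, a stress gene of denervated fibers, rose by 1.86 ± 0.23 (adjusted p = 1.15e-04, edgeR). Myog, a myogenic regulator, rose by 2.83 ± 0.42 (adjusted p = 3.91e-04), and Ncam1, an adhesion molecule of denervated fibers, by 2.37 ± 0.43 (adjusted p = 0.0016, both edgeR). The acetylcholine receptor subunits Chrnd and Chrna1 rose by 2.59 and 1.14, and Chrng was higher by 2.87, given as a description. Dach2, a repressor of transcription, had -1.12 ± 0.43 with an adjusted p of 0.0732 in edgeR. In Bin1 mck-/- on placebo, 2 of the 15 rose beside 1.99% of all genes, Myog by 2.26 ± 0.36 (adjusted p = 0.0135) and Ncam1 by 1.97 ± 0.41 (adjusted p = 0.0365, both edgeR), and 13 were not called. The count in Bin1 mck-/- was 0 without WT replicate 6, 4 without treated replicate 2 and 6 in DESeq2. Over all genes, the calls changed between fits as well, with 1140 in DESeq2 against 388 in edgeR. Musk, the receptor that gathers acetylcholine receptors at the synapse, had 1.44 ± 0.37 with an adjusted p of 0.0501. Chrng stayed low in absolute terms, at 0.624 to 2.39 CPM in Dnm2 S619L/+ on placebo and 0.113 to 0.237 in WT. It passed the filter on low counts through the Dnm2 S619L/+ mice, so its place among the 6 genes is a description.

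Under tamoxifen, Runx1 in WT mice was as high as in untreated Dnm2 S619L/+ mice, and in Dnm2 S619L/+ mice it differed less from placebo. WT mice on tamoxifen had 19.9, 27.0, 15.2 and 23.7 CPM of Runx1, against 0.949 to 3.66 on placebo, a log2 fold change of 3.27 ± 0.32. Dnm2 S619L/+ mice on tamoxifen had 35.0, 30.1, 47.0 and 24.1 CPM, against 16.02 to 26.5 on placebo, a log2 fold change of 0.58 ± 0.29. The treated WT mice did not overlap with untreated WT and overlapped with untreated Dnm2 S619L/+, and 3 of the 4 treated Dnm2 S619L/+ mice lay above every untreated one. The tamoxifen effect in Dnm2 S619L/+ minus that in WT was -2.70 ± 0.42 on the log2 scale. Bin1 mck-/- mice on tamoxifen had 3.01, 12.2, 2.75 and 6.76 CPM, against 2.79 to 13.9 on placebo, a log2 fold change of -0.50 ± 0.51. These groups overlapped, and without replicate 2 of the treated group the value was -1.06. Runx1 in treated Bin1 mck-/- still lay above WT in each mouse. All of these are values that chose the family, and no test was made of them. The effect of tamoxifen and that of the mutation share the untreated mice of their cohort.

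**Figure D2:**
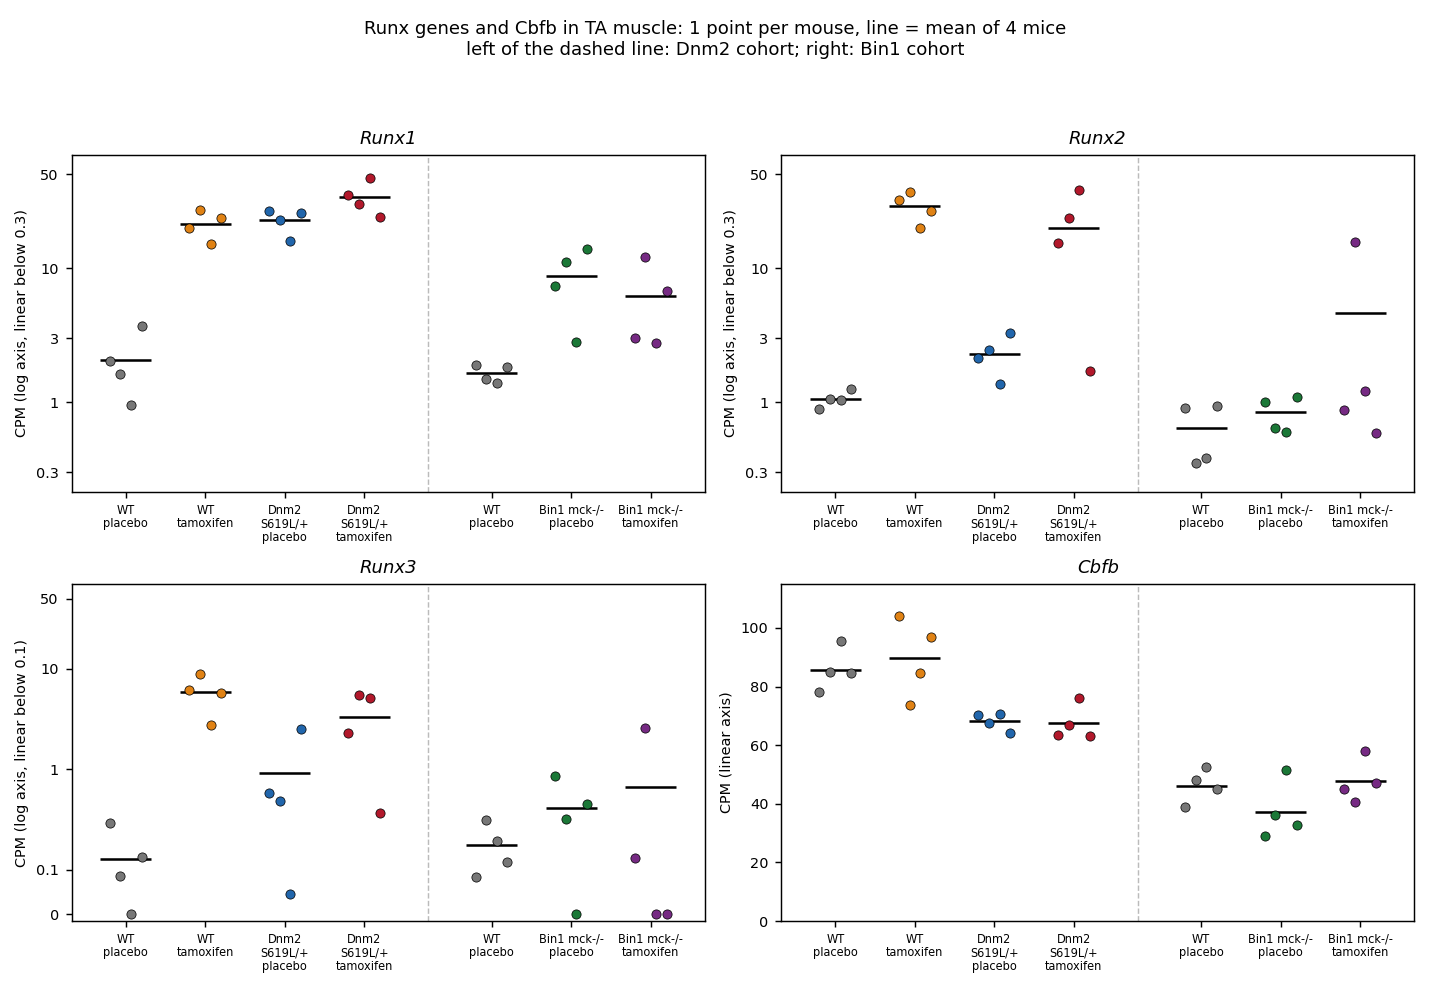
CPM of Runx1, Runx2, Runx3 and Cbfb in each of 28 mice, 4 per group, with the group mean as a line. The axis of the Runx genes is a log axis that turns linear near 0, and that of Cbfb is linear. Runx1 was above WT in every other group of its cohort, Runx2 was above 15 CPM in 8 mice, all on tamoxifen, and Cbfb spanned 63.1 to 104 CPM in the Dnm2 cohort.

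Under tamoxifen, the denervation genes called included subunits of the acetylcholine receptor that fell in WT and in Bin1 mck-/- mice. In WT mice on tamoxifen, 15.8% of all genes were called higher and 11.9% lower. Beside these shares, 1 of the 15 rose, Ncam1 by 2.29 ± 0.43 (adjusted p = 0.00159, edgeR). Chrna1 fell by 1.86 ± 0.34 on the log2 scale (adjusted p = 0.00131) and Chrnd fell by 2.24 ± 0.60 (adjusted p = 0.0126, both edgeR). Myog had 2.11 to 3.67 CPM in treated WT and 1.74 to 7.19 in untreated WT, and these groups overlapped. In Dnm2 S619L/+, Myh8, the perinatal myosin, rose by 0.97 ± 0.19 (adjusted p = 0.00828, edgeR), and Chrnd had -1.75 ± 0.54 with an adjusted p of 0.0592. In Bin1 mck-/-, Chrna1 fell by 1.19 ± 0.23 (adjusted p = 0.0197) and Chrnd by 2.67 ± 0.51 (adjusted p = 0.0214, both edgeR). Fbxo32, a ubiquitin ligase of atrophy, rose there by 0.86 ± 0.21 (adjusted p = 0.0408, edgeR). Of all genes, tamoxifen gave 5.22% called higher and 3.05% lower in Dnm2 S619L/+, and 1.52% and 1.61% in Bin1 mck-/-. The genes named in Dnm2 S619L/+ and in Bin1 mck-/- are no count out of the 15.

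Runx2 was near 1 CPM in untreated muscle and many times higher in most mice of the Dnm2 cohort on tamoxifen. WT mice had 0.892, 1.05, 1.03 and 1.25 CPM on placebo and 32.1, 36.9, 19.96 and 26.7 CPM on tamoxifen. The groups did not overlap. The change was 4.71 ± 0.64, on the log2 scale, or 26.2-fold, with an adjusted p of 2.91e-04 in edgeR, and it stayed between 4.57 and 4.85 when any mouse was left out. In this comparison 15.8% of all genes were called higher and 27.7% in either direction.

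In Dnm2 S619L/+ on tamoxifen, Runx2 was high in 3 of 4 mice. These mice had 2.12, 2.45, 1.36 and 3.28 CPM on placebo and 15.4, 23.5, 38.4 and 1.70 CPM on tamoxifen. Replicate 4 on tamoxifen lay among the untreated mice, so the groups overlapped. Tamoxifen gave a log2 fold change of 3.06 ± 0.60, or 8.36-fold, with an adjusted p of 0.00807 in edgeR, against 8.27% of all genes called and 5.22% called higher. In a fit of these 2 groups alone, without the other mice of the cohort, the adjusted p was 0.0935 in edgeR for a log2 fold change of 3.11. The tamoxifen effect in Dnm2 S619L/+ minus that in WT was -1.65 ± 0.81 with an adjusted p of 0.394 in edgeR, a comparison in which 40 genes, or 0.259%, were called, 0.0324% higher. Without replicate 4 the difference was -1.26.

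In untreated Dnm2 S619L/+ mice, Runx2 differed from WT by a smaller step, whose call depended on the fit. Every disease mouse, from 1.36 to 3.28 CPM, lay above every WT mouse, from 0.892 to 1.25. The log2 fold change was 1.09 ± 0.62 with an adjusted p of 0.216 in edgeR, in a fit whose estimate of spread included the treated mice. When only the 2 groups compared were fitted, the adjusted p was 0.0238, and it was 0.0215 without replicate 4 of the treated Dnm2 S619L/+ mice (both edgeR).

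Runx2 was low in every mouse of the Bin1 cohort but 1. WT mice had 0.895, 0.348, 0.384 and 0.934 CPM, and Bin1 mck-/- mice had 1.01, 0.644, 0.601 and 1.09 on placebo and 0.872, 15.7, 1.203 and 0.585 on tamoxifen. Apart from replicate 2 on tamoxifen, all 3 groups overlapped. The log2 fold change was 0.35 ± 0.92 for disease against WT (adjusted p = 0.880) and 2.38 ± 0.94 for tamoxifen in disease (adjusted p = 0.184, both edgeR). Without replicate 2 the latter was 0.07. Of all genes, 3.13% were called, 1.52% higher, under tamoxifen in Bin1 mck-/-.

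The mice with high Runx2 were the mice with high levels of bone genes. The 8 mice above 15 CPM of Runx2, that is the 4 WT mice on tamoxifen, 3 Dnm2 S619L/+ mice on tamoxifen and replicate 2 of the treated Bin1 mck-/- mice, had 2721 to 8594 CPM of the 8 summed osteoblast and osteocyte markers. The other 20 mice, all at or below 3.28 CPM of Runx2, had 91.6 to 1455 CPM of the markers. Most of this sum is Col1a1, a collagen that fibroblasts also make. Sp7, the osteoblast factor downstream of Runx2, was 14.5 to 30.0 CPM in WT on tamoxifen and 0 to 0.179 in WT on placebo, 0 to 0.0480 in Dnm2 S619L/+ on placebo and 0.864 to 25.3 on tamoxifen. In the Bin1 cohort it was at most 0.0533 CPM on placebo and reached 13.0 in 1 treated mouse. Osteoclast markers, of cells that resorb bone, had 7.27 to 12.0 CPM in WT and 264 to 1534 in WT on tamoxifen over 8 summed markers, 24.7 in replicate 4 and 250 to 728 in the other treated Dnm2 S619L/+ mice, and 183 in replicate 2 and 6.18 to 18.2 in the other treated Bin1 mck-/- mice. The part of bone tissue or bone cells in the sample in these Runx2 levels was not tested.

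**Figure D3:**
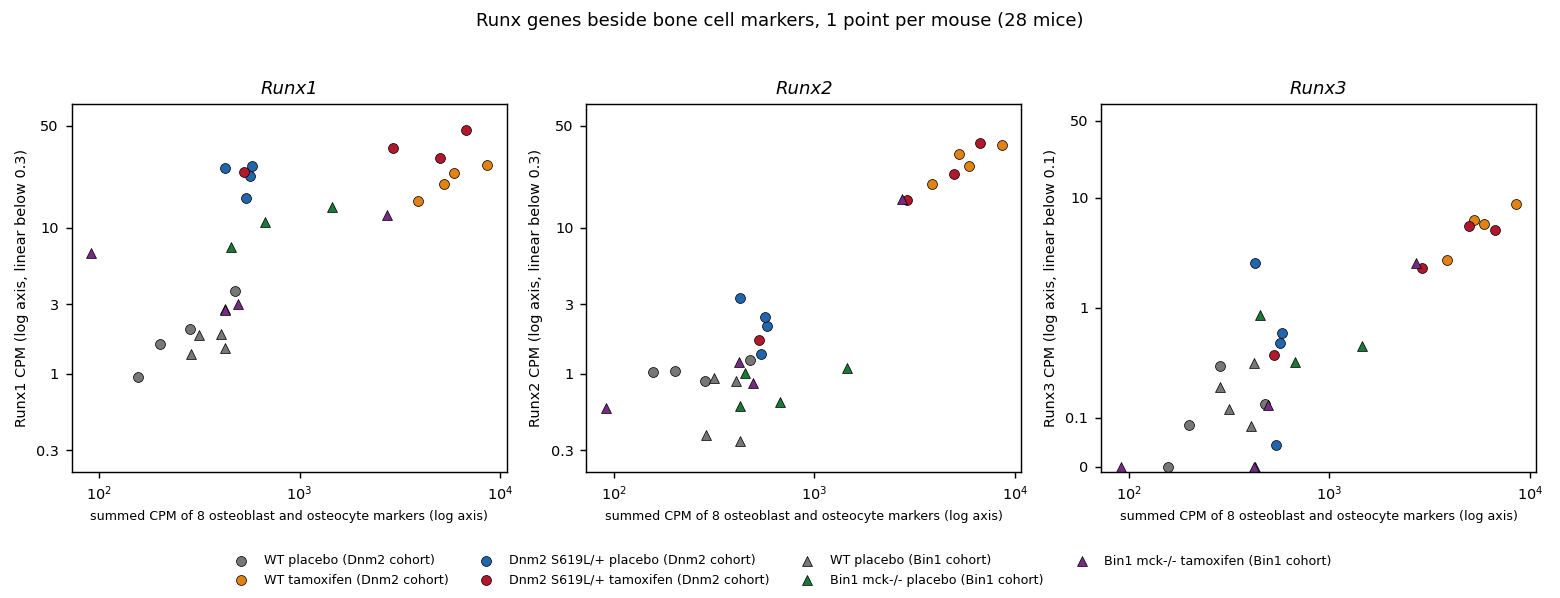
CPM of each Runx gene against the summed CPM of 8 osteoblast and osteocyte markers, 1 point per mouse, both on log axes (the vertical one linear near 0), with circles for the Dnm2 cohort and triangles for the Bin1 cohort. For Runx2, 8 treated mice from 2721 to 8594 CPM of markers stand apart from the other 20, whereas Runx1 was high in Dnm2 S619L/+ mice on placebo at 427 to 581 CPM of markers.

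Known Runx2 targets in bone were mostly called higher on tamoxifen in both genotypes of the Dnm2 cohort. Of 16 listed targets, 14 were called higher and 1 lower in WT on tamoxifen, beside 15.8% and 11.9% of all genes. The median log2 fold change was 4.44 against -0.04 for all genes. Among treated Dnm2 S619L/+ mice, 13 of 16 were called higher, beside 5.22% of all genes, and none lower, with a median of 3.01. Without replicate 4, 13 were called higher as well. Several of them were near 0 on placebo and entered the test through the treated mice, so these counts are a description. In the fit of the 2 Dnm2 S619L/+ groups alone, 2 of the targets were called, where only 30 of all genes were called. Mmp13 was 0.0849 to 0.953 CPM in WT, 588 to 1160 in WT on tamoxifen, and 13.1 to 1064 in treated Dnm2 S619L/+. Ibsp, a sialoprotein of bone matrix, was 0 to 0.821 CPM in WT and 172 to 652 in WT on tamoxifen, and Spp1 was 1.19 to 3.04 and 212 to 771 CPM. Bglap reached only 0.989 to 1.63 CPM in treated WT mice, and its reads can be shared with the near-identical Bglap2. Alpl, the alkaline phosphatase of mineralizing cells, rose by 2.08 ± 0.41 in WT (adjusted p = 0.00224) and by 3.19 ± 0.43 in Dnm2 S619L/+ (adjusted p = 0.00159, both edgeR). The target that fell in WT was Vegfa, by 0.64 ± 0.22 on the log2 scale (adjusted p = 0.0375, edgeR). It is also made by muscle fibers.

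Without treatment, few of the same targets were called in disease. Of 16, 1 was called higher in Dnm2 S619L/+ on placebo, beside 12.1% of all genes. It was Col10a1, which was near 0 in both groups (0 to 0.0101 CPM in WT and 0.0453 to 0.277 in disease). Beside 9.81% of all genes called lower, 2 fell, Alpl by 1.56 ± 0.41 (adjusted p = 0.015) and Vegfa by 0.68 ± 0.22 (adjusted p = 0.0363, both edgeR). Several of the 16, Col10a1 among them, entered the test through the treated mice, so these counts are a description. Without treated Dnm2 S619L/+ replicate 4, 4 of 16 rose and 2 fell. Of the 16, 10 passed the filter in the Bin1 cohort. There edgeR called 0 of 10 in disease against WT and 0 of 10 under tamoxifen, beside 2.61% and 3.13% of all genes. At an unadjusted p under 0.05 in edgeR there were 0 and 2, and DESeq2 called 0 and 1. Without replicate 2, edgeR called 3 of the 10 lower under tamoxifen in Bin1 mck-/-. Between such fits the number of all genes called changes too, as given under processing below. Mmp13 was 0 to 0.391 CPM in WT of that cohort and 291 CPM at the highest in treated Bin1 mck-/-.

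Other transcription factors of bone that act with Runx2 are given as a description under tamoxifen, since Sp7, Dlx5 and Dlx6 were near 0 on placebo and entered the test through the treated mice. Of 6 tested, 4 were called higher in WT on tamoxifen (those 3 and Msx1), beside 15.8% of all genes, and 3 in Dnm2 S619L/+ (those 3), beside 5.22%. Dlx5 was 0 to 0.0304 CPM in WT and 2.26 to 8.22 CPM in WT on tamoxifen. In disease without treatment, Sox9 and Msx1 rose in Dnm2 S619L/+ and Sox9 in Bin1 mck-/-. Sox9, the regulator of cartilage, rose by 1.87 ± 0.25 in Dnm2 S619L/+ (adjusted p = 1.57e-04) and by 1.94 ± 0.36 in Bin1 mck-/- (adjusted p = 0.0174, both edgeR).

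Runx3 was the least abundant member, with 0 to 29 reads per mouse in WT muscle on placebo. In the Dnm2 cohort, WT mice had 0.294, 0.0849, 0 and 0.134 CPM on placebo and 6.21, 8.79, 2.73 and 5.80 CPM on tamoxifen. The treated group lay wholly above the untreated one. Tamoxifen gave a log2 fold change of 4.73 ± 0.88, which ranged from 4.48 to 5.24 when any mouse was left out. The gene passed the filter on low counts through the treated mice, so the value is a description without a p, and its size rests on very few reads in WT.

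In Dnm2 S619L/+ the Runx3 values were scattered. These mice had 0.586, 0.480, 0.0453 and 2.53 CPM on placebo and 2.30, 5.50, 5.09 and 0.370 CPM on tamoxifen. The groups overlapped through replicate 4 of each. The tamoxifen effect was 1.78 ± 0.78 on the log2 scale. It is a description without a p, since Runx3 passed the filter through the treated mice. Untreated disease against WT gave 2.11 ± 0.84 with an adjusted p of 0.0841 in edgeR and 0.0364 in DESeq2, and it gave 0.996 with an adjusted p of 0.432 in edgeR without replicate 4 on placebo. The difference between the tamoxifen effects in Dnm2 S619L/+ and WT was -2.945 ± 1.096, also as a description.

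Lymphocyte genes were high beside Runx3 in 1 mouse. Dnm2 S619L/+ replicate 4 on placebo, with 2.53 CPM of Runx3, had 7 of 8 T and NK cell markers above 1 CPM, among them Cd3e at 3.88, Trac at 7.44 and Nkg7 at 3.60 CPM. In WT on tamoxifen, Cd3e was at most 0.150 CPM, Nkg7 at most 0.0942 and Ncr1 was 0 in each of the 4 mice. Of the 8 markers, 1 was above 1 CPM in each of these 4 mice, Cd4, at 4.04 to 11.6 CPM. Of 15 listed lymphocyte genes with a link to Runx3, only 5 passed the filter, some of them through the mice in which they were high, and these are given as levels without a test. Il2rb, a receptor chain of T and NK cells, was 0.141 to 0.268 CPM in WT, 0.384 to 13.7 in Dnm2 S619L/+ on placebo and 0.0613 to 0.321 in Dnm2 S619L/+ on tamoxifen. Tbx21, a factor of T and NK cells, was 0.558 to 1.11 CPM in WT and 0 to 0.282 in WT on tamoxifen, groups that did not overlap, and 0.136 to 1.19 and 0 to 0.185 CPM in Dnm2 S619L/+ on placebo and on tamoxifen. The part of lymphocytes in the Runx3 level was not tested. The 8 mice above 15 CPM of Runx2 had 2.30 to 8.79 CPM of Runx3. In the other 20 mice, Runx3 was 0 to 2.53 CPM.

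Runx3 was below 1 CPM in all mice of the Bin1 cohort but 1. WT mice had 0.0839, 0.313, 0.192 and 0.121 CPM, and Bin1 mck-/- mice had 0.858, 0.322, 0 and 0.453 on placebo and 0.131, 2.55, 0 and 0 on tamoxifen. The groups overlapped, and replicate 2 on tamoxifen was the mouse above 1 CPM. The log2 fold change was 0.99 ± 1.13 for disease and 0.67 ± 1.14 for tamoxifen, and the latter was -2.16 without replicate 2. Runx3 passed the filter on low counts through Bin1 mck-/- mice, with 3 to 9 reads in WT. These values are therefore a description without a p.

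Cbfb was the most abundant member and the one that varied least. WT mice of the Dnm2 cohort had 78.1, 84.8, 95.6 and 84.5 CPM on placebo, and Dnm2 S619L/+ mice had 70.3, 67.5, 70.6 and 64.1. These groups did not overlap, and the log2 fold change was -0.33 ± 0.11 with an adjusted p of 0.0358 in edgeR, but it was -0.06 with an adjusted p of 0.726 without TMM scaling. It did not pass without a filter on low counts (adjusted p = 0.0790) or with 7 of 16 mice left out in turn, with an adjusted p of up to 0.138 without WT replicate 3 (both edgeR).

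Under tamoxifen, Cbfb was not called in either model. WT mice on tamoxifen had 104, 73.7, 84.7 and 96.9 CPM, a log2 fold change of 0.07 ± 0.11 (adjusted p = 0.664, edgeR), which was 0.35 with an adjusted p of 0.0285 without TMM scaling. Treated Dnm2 S619L/+ mice had 63.5, 66.9, 76.1 and 63.1 CPM, a log2 fold change of -0.02 ± 0.11 (adjusted p = 0.951, edgeR), which was 0.07 without TMM scaling. In the Bin1 cohort, Cbfb was 38.8, 48.2, 52.6 and 45.0 CPM in WT, 29, 36.2, 51.6 and 32.7 in Bin1 mck-/- on placebo and 45.1, 40.7, 58.1 and 47.0 on tamoxifen. The groups overlapped, with log2 fold changes of -0.30 ± 0.16 for disease (adjusted p = 0.321) and 0.35 ± 0.16 for tamoxifen (adjusted p = 0.239, both edgeR). The latter was 0.55 with an adjusted p of 0.0468 in edgeR without replicate 3 on placebo.

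**Figure D4:**
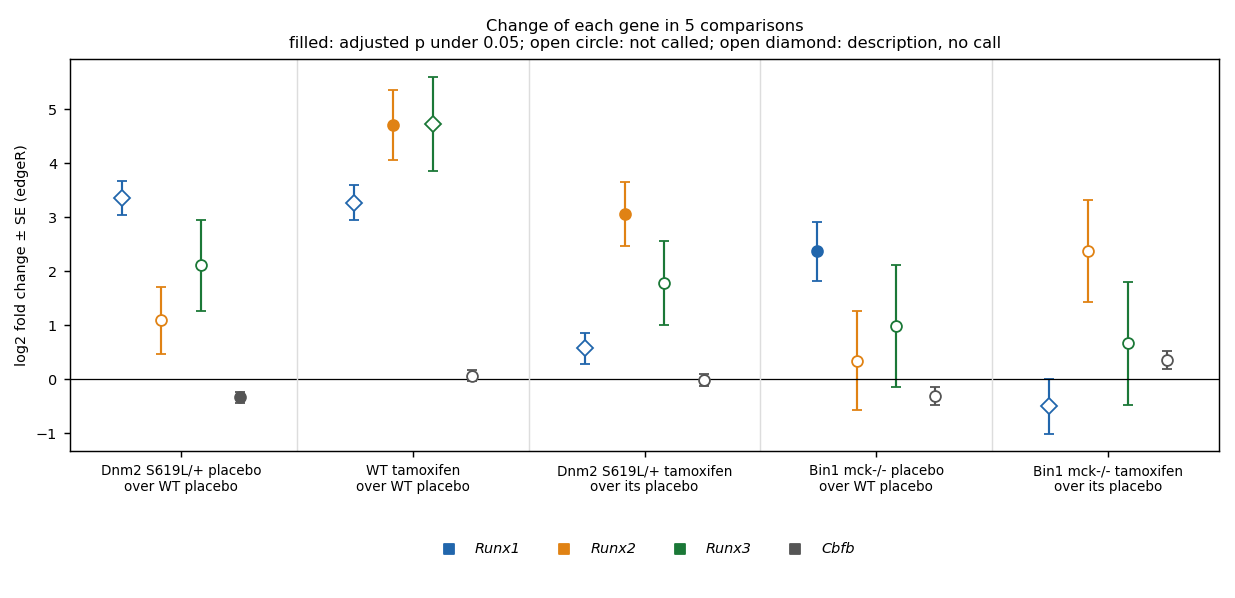
Log2 fold change ± SE from edgeR for the 4 genes in 5 comparisons, with filled symbols for an adjusted p under 0.05, open circles for values not called and open diamonds for values given as a description (Runx1, other than in Bin1 mck-/- on placebo, and Runx3 in WT on tamoxifen). Runx1 in Bin1 mck-/- on placebo, Runx3 in Dnm2 S619L/+ on tamoxifen and Runx3 in the Bin1 cohort are likewise a description. No call is read from them, whatever their symbol. Runx2 and Runx3 were highest in WT on tamoxifen, at 4.71 and 4.73. Cbfb lay between -0.33 and 0.35, and its fall of 0.33 in Dnm2 S619L/+ was 0.06 without TMM scaling.

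Treated Dnm2 S619L/+ mice against untreated WT mice, which joins the effects of genotype and drug, gave 4.16 ± 0.63 for Runx2 (adjusted p = 4.61e-04, edgeR). Runx3 gave 3.90 ± 0.86 and Runx1 3.94 ± 0.33, both as a description. Cbfb gave -0.35 ± 0.11 (adjusted p = 0.0229, edgeR), but 0.02 without TMM scaling. In this comparison 28.9% of all genes were called. In treated Bin1 mck-/- against WT, where 0.849% of genes were called, Runx2 gave 2.72 ± 0.96 (adjusted p = 0.229, edgeR). Runx1 gave 1.87 ± 0.54 and Runx3 1.65 ± 1.16, both as a description. Without replicate 2 on tamoxifen, Runx2 gave 0.42 and Runx3 -1.18. These comparisons share their WT mice with those of untreated disease.

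Cofactors and modulators of Runx proteins were called about as often as all genes in Dnm2 S619L/+ on placebo and in WT on tamoxifen. Of 25, 3 rose and 3 fell in Dnm2 S619L/+ on placebo, beside 12.1% and 9.81% of all genes, and without TMM scaling 6 rose and none fell. Hdac4, a deacetylase that represses Runx2 and acts in denervated fibers, rose by 0.93 ± 0.14 (adjusted p = 3.76e-04, edgeR). The corepressor Ncor1 fell by 0.54 ± 0.12 (adjusted p = 0.00409) and the coactivator Ep300 by 0.51 ± 0.11 (adjusted p = 0.00498, both edgeR). In WT on tamoxifen, 4 rose and 1 fell, beside 15.8% and 11.9% of all genes, or 9 and 0 without TMM scaling. Twist1, which restrains Runx2, rose by 3.05 ± 0.47 (adjusted p = 5.07e-04), Zfp521, another Runx2 repressor, by 1.13 ± 0.20 (adjusted p = 9.55e-04) and the Groucho corepressor Tle2 by 0.72 ± 0.21 (adjusted p = 0.0217, all edgeR). In Dnm2 S619L/+ on tamoxifen, 3 of 25 rose beside 5.22% of all genes, Tle2 by 1.01 ± 0.22 (adjusted p = 0.0119), Zfp521 by 0.84 ± 0.20 (adjusted p = 0.018) and Twist1 by 1.64 ± 0.45 (adjusted p = 0.0371, all edgeR). In the Bin1 cohort, edgeR called 0 of 25 in disease against WT and 0 of 25 under tamoxifen, with 3 and 3 at an unadjusted p under 0.05. Of all genes, 2.61% and 3.13% were called in these comparisons. DESeq2 called 0 in disease and 2 lower under tamoxifen, and a fit of only the groups compared called 3 lower in disease. These fits also called more of all genes, 1169 in DESeq2 under tamoxifen and 1458 in disease with only the groups compared.

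Blood cell genes that Runx1 controls in marrow were only partly measurable, with 7 of 12 passing the filter. In Dnm2 S619L/+ on placebo, Itga2b, the platelet integrin, rose by 1.23 ± 0.23 (adjusted p = 0.00175, edgeR). In WT on tamoxifen, Csf1r, the receptor of macrophage colony-stimulating factor, rose by 2.14 ± 0.39 (adjusted p = 0.00144), Itga2b by 0.91 ± 0.23 (adjusted p = 0.00848) and Spi1, a myeloid factor, by 2.13 ± 0.55 (adjusted p = 0.0106, all edgeR). Of all genes, 12.1% were called higher in Dnm2 S619L/+ on placebo and 15.8% in WT on tamoxifen. By edgeR, 0 of 7 were called under tamoxifen in Dnm2 S619L/+, beside 8.27% of all genes, with 2 at an unadjusted p under 0.05 and 0 in DESeq2. In Bin1 mck-/- against WT edgeR called 0 of 7, beside 2.61% of all genes, with 4 at an unadjusted p under 0.05 and 4 higher in DESeq2. Under tamoxifen in Bin1 mck-/- it called 0 of 7, beside 3.13%, with 3 at an unadjusted p under 0.05 and 3 lower in DESeq2. With 7 genes and such shares, counts of 0 say little about these genes. Of all genes, DESeq2 called 1140 in Bin1 mck-/- against WT and 1169 under tamoxifen, where edgeR called 388 and 464.

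Markers of neighbouring tissues were counted in the same way, as a description, since several of the bone and cartilage markers (Sp7, Ibsp, Bglap and Col10a1 among them) were near 0 on placebo and entered the test through the treated mice. In WT on tamoxifen, 6 of 7 osteoblast and osteocyte markers, 7 of 8 osteoclast markers, 4 of 6 cartilage markers and 5 of 6 tendon markers were called higher and none lower, beside 15.8% of all genes called higher. In Dnm2 S619L/+ on tamoxifen the counts were 6, 6, 2 and 0, again with none lower, beside 5.22%. In Dnm2 S619L/+ on placebo, 3 of 6 tendon markers and 2 of 6 cartilage markers were called higher, beside 12.1% of all genes, and 4 of 6 endothelial markers lower, beside 9.81%.

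Genes whose pattern over mice was most like that of each member were found among 14550 genes, by the lower of the 2 Pearson correlations of log2 CPM over the 16 mice of the Dnm2 cohort and the 12 of the Bin1 cohort. The mice of a cohort share groups, depth and tissue content, so these are descriptions. For Runx1 the nearest were Timp1 (r = 0.94 and 0.91), an inhibitor of matrix proteases, then Eid1, Rgs11, Sept5 and Gpx1. Timp1 had 0.395 to 1.41 CPM in WT, 22.4 to 55.2 in WT on tamoxifen and 7.20 to 36.8 in Dnm2 S619L/+ on placebo. For Runx2 the nearest were Nsg1 (r = 0.96 and 0.95), Col13a1, Pth1r (the receptor of parathyroid hormone), Igsf3 and Fgfr3. For Runx3 they were Tpcn2 (r = 0.89 and 0.88), Cacna1g, Frmd6, Slc6a7 and Chpf. For Cbfb they were Car3 (r = 0.80 and 0.81), Gdap1, Mstn, Ccnk and Phc1, and Mstn, the myostatin that limits muscle growth, had 38.2 to 57.3 CPM in WT and 11.4 to 20.3 in Dnm2 S619L/+ on placebo. Among the members, Runx2 and Runx3 were closest (r = 0.93 over the Dnm2 cohort and 0.60 over the Bin1 cohort), and Runx1 and Runx2 had 0.67 and 0.52.

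Overlapping genes on the opposite strand could add reads only if the counting ignored strand, which is not given in the sources used here. Those on the same strand, n-R5s27 in Runx2 and Gm22063 and Gm24629 in Cbfb, share 0 exon bases with the member. The antisense genes that share exon bases with a member, Gm26626 in Runx1 and Runx2os1 in Runx2, had at most 2 and 5 reads in any mouse. Supt3 lies across Runx2 on the opposite strand and shares 0 exon bases with it, and its group means in the Dnm2 cohort were 4.57 to 8.62 CPM, lowest in WT on tamoxifen, where Runx2 was highest.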

How the data were processed

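RNA-seq of TA muscle from 28 mice, each column 1 mouse, was analysed from 2 tables of read counts per gene deposited by the authors, 1 per cohort. Per the submitters' processing notes, bcl2fastq 2.20.0.422, cutadapt 1.10, Bowtie 1.2.2, STAR 2.5.3, HTSeq 0.6.1p1 and build mm39 were used. The annotation release and the strand setting are not given in the sources used here. In the Bin1 table, 4 lines name no gene (22.0% to 30.8% of counts per mouse) and were left out. Symbols came from an annotation of build GRCm38 and matched 52083 identifiers in each table, and exon lengths and promoters were taken from that build. Counts were filtered with filterByExpr, scaled by TMM and tested with edgeR 4.0.16 (R 4.3.3), by the quasi-likelihood test with robust dispersions, a prior count of 2 and Benjamini-Hochberg adjustment at 0.05. All mice of a cohort entered 1 fit, for 8 comparisons. SE is the log2 fold change divided by the root of F. Levels are CPM on TMM-scaled library sizes, and p-values cover the spread between mice. Named genes were the 4 members, the 3 genes of each list with the smallest p in a comparison, and the 5 genes most correlated with each member. Other list genes were named after their values were seen. Scripts were tested on simulated data. The members and the lists of Runx targets, cofactors and cell markers were chosen with earlier results of these data known. Alternatives were DESeq2 1.42.0, RLE scaling, no filter, more than 10 reads in 90% of mice, only the groups compared, a replicate block and leaving out each mouse. Library size without TMM was added after seeing the data. Runx1 in Dnm2 S619L/+ and in Bin1 mck-/- against WT was planned as a test and is reported without a p. The same holds for Runx3 in every comparison with treated mice in the Dnm2 cohort and in every comparison of the Bin1 cohort.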

Additional observations from a re-analysis of the deposited data

Results flagged for a closer look

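In Bin1 mck-/- mice on tamoxifen, 1 of 4 mice, replicate 2, lay far above the others in Runx2, with 15.7 CPM against 0.585 to 1.203, a gap of 0.959 of the whole range by Dixon's ratio. The same mouse was far above the others in Runx3, with 2.55 CPM against 0 to 0.131, a ratio of 0.949. Both ratios exceed the limit for 4 samples, which chance alone passes in about 5% of groups. This mouse also had the highest osteoblast and osteocyte markers of its group, 2721 CPM, and 183 CPM of osteoclast markers, whose part in both values was not tested.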

How the results depend on the processing

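A value counted as kept if its direction and its call held. For Runx1, other than in untreated disease against WT, no call was used. There a value counted as kept if it moved by less than the SD within groups. These Runx1 values, like its calls in untreated disease, are no test. Of 662 values of the 4 genes under alternatives, 614 were kept in this sense. Among the others, for Dnm2 S619L/+ against WT, Runx2 was called with only the groups compared (1.08), Runx3 in DESeq2 (2.67) and with library size only (2.36), and Cbfb was lost with library size only (-0.0576), with no filter (-0.33) and under the replicate block (-0.33). Cbfb under tamoxifen in WT was called with library size only (0.35), and in Dnm2 S619L/+ it turned positive with library size only (0.074), with more than 10 reads in 90% of mice (0.003) and with only the groups compared (0.0287). Runx2 under tamoxifen in Dnm2 S619L/+ was lost with only the groups compared (3.11). In treated Dnm2 S619L/+ against WT, Cbfb turned positive with library size only (0.0164) and was lost with no filter (-0.34). Runx1 in Bin1 mck-/- against WT was 2.36 with no filter, given as a description without a call. The causes were not tested.

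Genes called in Dnm2 S619L/+ against WT numbered 3382, or 5275 with library size only. Tamoxifen in Dnm2 S619L/+ gave 1277, or 814 with no filter and 30 with only the groups compared. The difference of the tamoxifen effects gave 40, or 322 in DESeq2, 20 with RLE and 16 with more than 10 reads in 90% of mice. Bin1 mck-/- against WT gave 388, or 1140 in DESeq2 and 1458 with only the groups compared. Tamoxifen in Bin1 mck-/- gave 464, or 1169 in DESeq2 and 122 with only the groups compared. Treated Bin1 mck-/- against WT gave 126, or 519 in DESeq2 and 210 with no filter.

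Replicate numbers did not pair the mice, since same-numbered mice had correlations of their deviations from -0.325 to 0.335 in the Dnm2 cohort and from -0.175 to 0.149 in the Bin1 cohort. With the replicate block, the calls were 843 for tamoxifen in Dnm2 S619L/+, 10 for the difference of tamoxifen effects and 152 for tamoxifen in Bin1 mck-/-, where Runx3 turned to -0.56.

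Leaving out 1 mouse at a time gave 2034 to 3953 genes for Dnm2 S619L/+ against WT, 2769 to 4825 for tamoxifen in WT, 368 to 2562 for tamoxifen in Dnm2 S619L/+, 2955 to 5497 for treated Dnm2 S619L/+ against WT, 1 to 293 for the difference, 18 to 759 for Bin1 mck-/- against WT, 160 to 1253 for tamoxifen in it and 42 to 266 for treated Bin1 mck-/- against WT. Against WT, Dnm2 S619L/+ gave Runx2 0.88 to 1.26, Runx3 0.996 to 2.63 and Cbfb -0.37 to -0.26. Tamoxifen gave Cbfb -0.0114 to 0.151 in WT, and in Dnm2 S619L/+ Runx3 1.43 to 2.89 and Cbfb -0.0776 to 0.0156. Treated Dnm2 S619L/+ against WT gave Cbfb -0.41 to -0.28. Bin1 mck-/- against WT gave Runx1 2.05 to 2.66, tamoxifen in it gave Runx3 -2.16 to 1.21 and Cbfb 0.25 to 0.55, and treated Bin1 mck-/- against WT gave Runx3 -1.18 to 2.04 and Cbfb -0.0602 to 0.117. Depth limits Runx3 most, with 0 to 29 reads per WT mouse on placebo.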
